A study of Homo sapiens with 12 samples.

Results

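Scavenger and phagocytic receptors were examined in 2 human acute myeloid leukemia lines treated with Jiyuan oridonin A (JOA). The set holds 10 genes, chosen by symbol from the 20030 rows of the expression table, and every one of them had a row. MARCO, MSR1, CD36, OLR1, STAB1 and CD163 encode scavenger receptors, MRC1 and CLEC7A encode lectin receptors, and TREM2 and TYROBP encode a receptor of the TREM family and its signalling adaptor. The study asked which transcripts change when JOA, a diterpenoid isolated from an Isodon plant, slows the growth of leukemia cells with rearranged MLL.

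The mRNA-seq data covered 12 libraries in 4 groups of 3. MOLM-13 cells carry an MLL rearrangement and an internal tandem duplication of FLT3, and were incubated for 48 h with DMSO (MOLM-13 control) or with 0.5 μM JOA (MOLM-13 JOA). THP-1 cells carry an MLL rearrangement with unmutated FLT3, and were incubated for 48 h with DMSO (THP-1 control) or with 2 μM JOA (THP-1 JOA). The labels and the methods give this time, although another place in the study gives a longer one. Line and dose differ together, so that their parts in any difference between the lines' responses cannot be told apart. The study states that its experiments were repeated, but neither the labels nor the sequencing methods say whether the libraries of a group came from separate cultures, and the spread behind the p-values may then be technical.

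The table gives FPKM, that is, fragments per kilobase of transcript scaled to the mapped fragments of the library, so that levels can be compared between genes per unit of length. Relative depth, read from the steps between low values, lay between 0.896 and 1.00 of the first MOLM-13 control library in MOLM-13 cells and between 0.860 and 1.02 in THP-1 cells. The search covered only ratios in a limited range around that library, so a much larger difference would have been missed. Total depth is unknown. Of 9 markers of the monocytic lineage, 8 had a mean of at least 1 FPKM in every group, with LYZ the highest, and CD14 stood lower, at 0.144 to 0.645 FPKM. Of 20 markers of other lineages, 1 or 2 reached 1 FPKM in each group, and the highest was PECAM1, which monocytes also express. The other was the lymphoid marker CD3D in MOLM-13 cells, at means of 2.83 FPKM in controls and 2.13 FPKM with JOA. In THP-1 cells CD3D was at 0 FPKM in both groups.

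Scavenger receptors are structurally unrelated membrane proteins that bind modified lipoproteins, bacteria and dying cells, and deliver them to endosomes and phagosomes. The class A members MARCO and MSR1 carry a collagenous stalk, CD36 takes up oxidised lipoprotein and long-chain fatty acids, OLR1 (LOX-1) is a lectin-like receptor for oxidised low-density lipoprotein, STAB1 clears altered proteins and CD163 takes up haptoglobin bound to hemoglobin. MRC1 (the mannose receptor) and CLEC7A (dectin-1, a receptor for fungal beta-glucan) bind sugars. TREM2 binds lipids and apolipoproteins, and because its own tail is short it signals through TYROBP (DAP12), whose ITAM recruits the kinase SYK. Most of these genes are low in immature myeloid cells and are switched on in macrophages, where the factor PU.1 is needed for the myeloid program.

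The promoters of MARCO, TREM2 and TYROBP are shown because, among the genes that passed the filter of 0.1 FPKM, the first differed most with JOA and the second differed most between the control lines on the log2 scale used below, and the third encodes the partner of the second at a far higher level. Each was cut from the 250 bases before the RefSeq start on GRCh38.p14, and bases that lie inside a GENCODE transcript were left off. Letters are in lower case, 5′ to 3′ on the strand of the gene, and capitals mark matches to the PU.1 purine box GAGGAA on either strand. For MARCO this leaves 222 bases at chr2:118941944-118942165 on the plus strand, for TREM2 180 bases at chr6:41163187-41163366 on the minus strand, and for TYROBP all 250 bases at chr19:35908296-35908545 on the minus strand.
MARCO: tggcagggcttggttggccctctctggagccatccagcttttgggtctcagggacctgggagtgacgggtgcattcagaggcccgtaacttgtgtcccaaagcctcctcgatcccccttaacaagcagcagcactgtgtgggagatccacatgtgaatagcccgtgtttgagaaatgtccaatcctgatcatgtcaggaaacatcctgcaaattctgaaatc
TREM2: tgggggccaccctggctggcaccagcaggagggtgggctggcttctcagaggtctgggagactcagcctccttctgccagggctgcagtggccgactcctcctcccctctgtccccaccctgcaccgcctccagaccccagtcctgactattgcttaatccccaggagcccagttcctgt
TYROBP: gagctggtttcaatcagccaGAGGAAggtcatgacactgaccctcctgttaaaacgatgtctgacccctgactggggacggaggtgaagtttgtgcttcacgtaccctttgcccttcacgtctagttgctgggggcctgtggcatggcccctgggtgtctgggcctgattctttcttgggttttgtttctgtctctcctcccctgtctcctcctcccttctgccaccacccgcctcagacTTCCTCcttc

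The motifs searched, on both strands of each whole window of 250 bases, were GAGGAA, the AP-1 site TGANTCA, the antioxidant response element core TGACNNNGC and the MAF half-site TGCTGAC, of which the last can overlap a match to another. The TYROBP window held 2 matches, both to the purine box, at position −230 from the start on the strand of the gene and at −10 on the opposite strand. The MARCO and TREM2 windows held 0 matches, which says only that these letters are not in these windows. GAGGAA also matched in the windows of STAB1 (−83) and CD163 (−182) and in some windows of CD36. The CD163 window also held TGACNNNGC at −54, and other CD36 windows held TGACNNNGC or TGANTCA. Any link of these matches to the levels of the genes was not tested. Among 35116 RefSeq windows of the same length, 23.6% held GAGGAA, 6.57% held TGANTCA, 10.9% held TGACNNNGC and 3.43% held TGCTGAC. Windows were found for 6 of the 10 genes, namely MARCO, CD36, STAB1, CD163, TREM2 and TYROBP, and the 6 alternative windows of CD36 brought their number to 11. MSR1, OLR1, MRC1 and CLEC7A were not analysed here.

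The 10 genes fell into a high, a middle and a low range. TYROBP was among the most abundant transcripts of both lines, at a mean of 112 to 169 FPKM in the 4 groups, above 98.1% to 98.8% of all rows. TREM2 lay at 4.66 to 6.08 FPKM in MOLM-13 cells and at 30.3 to 34.4 FPKM in THP-1 cells. CD36 lay at 5.09 to 5.97 FPKM in all groups, and MARCO at 0.521 to 2.59 FPKM. The other 6 genes had means below 0.12 FPKM in every group.

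**Figure D1:**
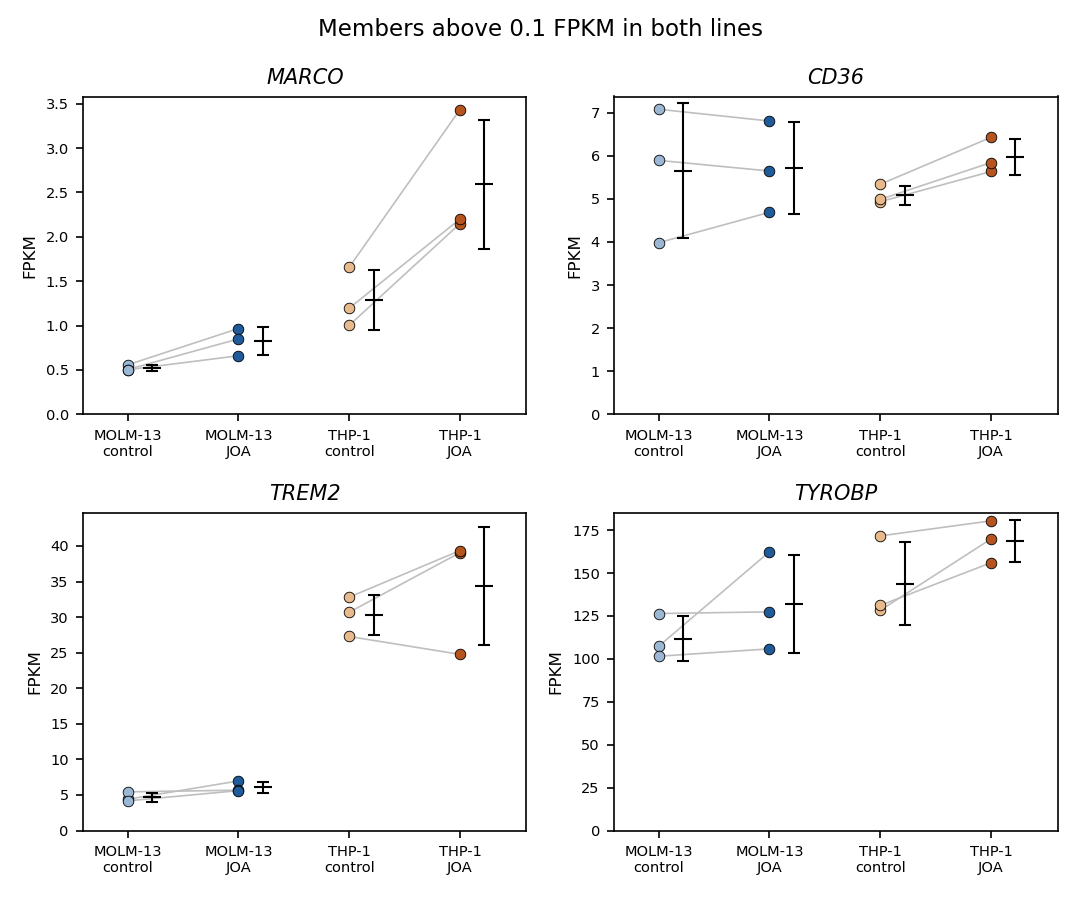
FPKM of MARCO, CD36, TREM2 and TYROBP in each library (circles), by group on the horizontal axis and with a vertical axis of its own for each gene, starting at 0. Grey lines join libraries with the same replicate number, and the black bars give the mean ± SD (n = 3). MARCO is higher with JOA in every pair of both lines, and TREM2 is far higher in THP-1 than in MOLM-13 cells.

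MARCO, a receptor of macrophages for bacteria and particles, was the one member whose JOA libraries lay above the controls without overlap in both lines. In MOLM-13 cells the control libraries 1, 2 and 3 held 0.557, 0.505 and 0.502 FPKM and the JOA libraries 0.966, 0.849 and 0.659 FPKM. In THP-1 cells the controls held 1.00, 1.19 and 1.66 FPKM and the JOA libraries 2.15, 2.20 and 3.43 FPKM. The lowest JOA library stood above the highest control library in each line, and library 3 was the highest of both THP-1 groups.

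The MARCO mean went from 0.521 ± 0.0308 to 0.825 ± 0.155 FPKM (SD, n = 3) in MOLM-13 cells, a ratio of 1.58, and from 1.28 ± 0.336 to 2.59 ± 0.728 FPKM (SD, n = 3) in THP-1 cells, a ratio of 2.02. Between libraries of the same number, JOA over control gave 1.74, 1.68 and 1.31 for the MOLM-13 line and 2.14, 1.84 and 2.07 for the THP-1 line. The ratios of the THP-1 pairs were thus close to each other, while the levels behind them were not.

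The fold changes were tested by limma on log2(FPKM + 0.1), a scale that understates changes of low genes, over genes with a mean of at least 0.1 FPKM in the libraries fitted. Calls needed both an adjusted p under 0.05 (Benjamini-Hochberg, over all genes tested) and a log2 fold change of at least 0.58 in size. In MOLM-13 cells MARCO had a log2 fold change of 0.56 ± 0.16 (SE, 95% interval 0.19 to 0.94) and a limma adjusted p of 1.00, and it was not called. In THP-1 cells its value was 0.96 ± 0.22 (SE, 95% interval 0.44 to 1.47) and a limma adjusted p of 0.0989, and it was not called either.

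Libraries of the same number deviated together, so a second fit took the replicate number as a block. The labels do not say what a number stands for, so this pairing is inferred from the same data. With the block, MARCO was called in THP-1 cells, with the same log2 fold change of 0.96, an SE of 0.09 and a limma adjusted p of 0.00659, while in MOLM-13 cells its adjusted p was 0.348. Among all genes the block raised the share called in THP-1 cells from 0.134% of 12712 to 1.27%, so MARCO was 1 of 161 genes called there. MARCO's call with the block also needed the filter, since the adjusted p with the block was 0.0675 when every gene above 0 in any library was tested, a fit chosen after seeing the data. The study itself lists MARCO among phagosome genes altered by JOA in THP-1 cells, and its text gives no direction for this gene. That listing rests on these same libraries and is no independent evidence.

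TREM2, a lipid-sensing receptor of macrophages and microglia, differed with JOA less than MARCO did in fold. In MOLM-13 cells its control libraries held 4.39, 5.43 and 4.16 FPKM and its JOA libraries 6.97, 5.67 and 5.61 FPKM, without overlap. In THP-1 cells the controls held 27.3, 30.7 and 32.8 FPKM and the JOA libraries 24.8, 39.1 and 39.4 FPKM. The THP-1 groups overlapped, because JOA library 1 was the lowest of the 6.

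The log2 fold change of TREM2 was 0.38 ± 0.12 in MOLM-13 cells (SE, 95% interval 0.09 to 0.66), with a limma adjusted p of 1.00, and 0.16 in THP-1 cells (95% interval −0.24 to 0.55), with a limma adjusted p of 0.693. TREM2 was called in neither line. The study lists TREM2 among tretinoin-response genes of MOLM-13 cells from these same libraries. In THP-1 cells the value of 0.16 became 0.38 without JOA library 1, 0.05 without JOA library 2, 0.04 without JOA library 3 and 0.08 without control library 1.

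TYROBP, the adaptor that carries the TREM2 signal, was at 107, 102 and 126 FPKM in the MOLM-13 controls and at 162, 106 and 127 FPKM with JOA. In THP-1 cells it was at 128, 131 and 172 FPKM in the controls and at 170, 156 and 180 FPKM with JOA. It was higher with JOA in 3 of 3 pairs of each line, but the groups overlapped in both. Its log2 fold change was 0.22 in MOLM-13 cells (95% interval −0.12 to 0.57) and 0.24 in THP-1 cells (95% interval −0.02 to 0.50), with limma adjusted p of 1.00 and 0.332. The MOLM-13 value rested on single libraries, since it was 0.06 without JOA library 1 and 0.37 without JOA library 2.

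CD36, the fatty acid and oxidised lipoprotein receptor, held 7.08, 3.98 and 5.89 FPKM in the MOLM-13 controls and 6.81, 4.69 and 5.65 FPKM with JOA. These groups overlapped throughout, and the library numbers kept their order in both. In THP-1 cells CD36 held 5.34, 4.93 and 4.99 FPKM in the controls and 6.43, 5.63 and 5.84 FPKM with JOA, so that every JOA library lay above every control. The log2 fold change was 0.04 in MOLM-13 cells (95% interval −0.44 to 0.51, limma adjusted p = 1.00) and 0.23 in THP-1 cells (95% interval 0.05 to 0.40, limma adjusted p = 0.189), and CD36 was not called in either.

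**Figure D2:**
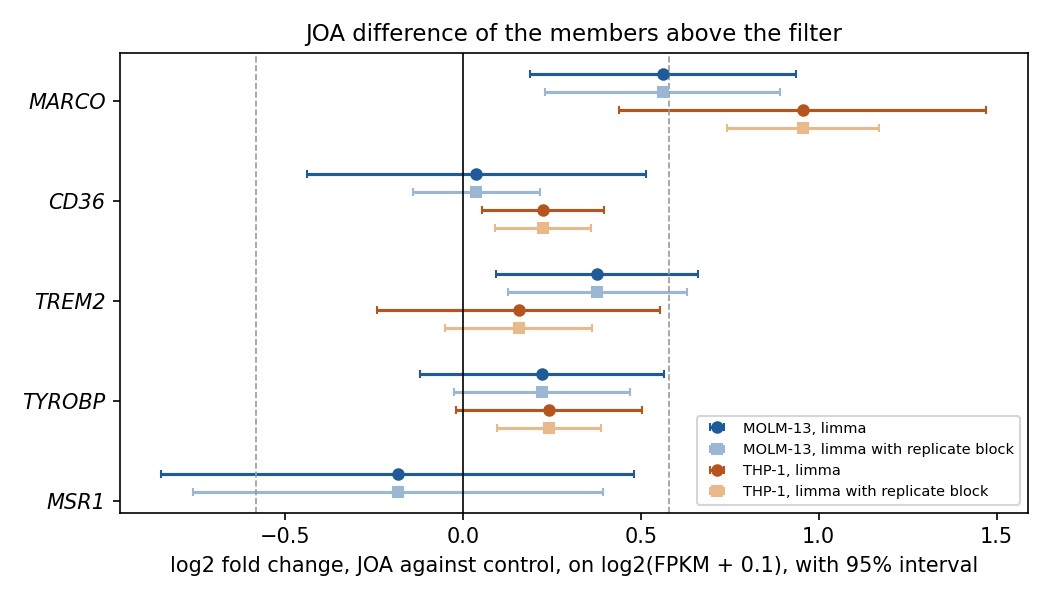
Log2 fold change of JOA against control on log2(FPKM + 0.1), on the horizontal axis, for the genes that passed the filter of 0.1 FPKM, with 95% intervals from limma without the replicate block (circles) and with it (squares). MOLM-13 values are in blue and THP-1 values in orange, the dashed lines stand at 0.58 on either side of 0, and MSR1 passed the filter in MOLM-13 cells only. The estimates do not move with the block, and the THP-1 interval of MARCO narrows to lie wholly above 0.58.

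Counted over the set, the filter was passed by 5 genes in MOLM-13 cells and by 4 in THP-1 cells. In MOLM-13 cells 0 of 5 were called, where limma called 0 (0%) of 11693 genes tested, with or without the block, and 481 genes had an unadjusted p under 0.05. MARCO and TREM2 were among these 481. Without the block, that is fewer genes than the share of 0.05 expected by chance among those tested, and the smallest limma adjusted p was 0.406. The median log2 fold change was 0.22 over the 5 genes and 0.005 over all genes tested. In THP-1 cells 0 of 4 were called without the block and 1 of 4 with it, and the median was 0.23 over the 4 genes and 0.02 over all genes tested. At the same thresholds the study reported genes up and down in both lines with DESeq, which was not run here. The counts of calls given here are thus those of limma on FPKM.

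The JOA libraries did not overlap the controls for 2 of 5 genes in MOLM-13 cells, MARCO and TREM2, and for 2 of 4 in THP-1 cells, MARCO and CD36. This held for 9.65% and 23.4% of all genes tested in these lines. MARCO was in both counts, and 1.22% of the 11355 genes tested in both lines stood above their controls in this way. With 3 libraries a group, 0.1 is the smallest p of the exact permutation test (two-sided), and MARCO reached it in each line.

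The difference between the lines' responses was tested as an interaction. It was 0.39 for MARCO (95% interval −0.24 to 1.03), −0.22 for TREM2 (95% interval −0.73 to 0.29), 0.19 for CD36 (95% interval −0.36 to 0.73) and 0.02 for TYROBP (95% interval −0.44 to 0.48), on the log2 scale as the THP-1 response minus the MOLM-13 response. Of these 4 genes 0 were called, with limma adjusted p from 0.855 to 0.991, where 0% of 12626 genes were called without the block and 0.0475% with it, and 914 had an unadjusted p under 0.05. With the block, the MARCO interval was 0.05 to 0.74 around the same estimate, with an unadjusted limma p of 0.0300 and an adjusted p of 0.283.

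Without JOA the lines differed far more. TREM2 was 6.49 times as high in THP-1 controls, at 30.3 ± 2.79 FPKM, as in MOLM-13 controls, at 4.66 ± 0.676 FPKM (SD, n = 3). Its log2 fold change was 2.68 ± 0.11 (SE, limma adjusted p = 3.11e-07). MARCO was 2.47 times as high in THP-1 controls, with a log2 fold change of 1.13 ± 0.18 (SE, limma adjusted p = 0.000622). Both were called. With a pseudocount of 1 in place of 0.1, the log2 fold change of MARCO was 0.58 after rounding but below the threshold, and the call was lost.

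TYROBP was 1.29 times as high in THP-1 controls and passed the test, with a log2 fold change of 0.36 and a limma adjusted p of 0.0335, but not the fold threshold. This pass was lost without a trend (0.0626), over every gene above 0 in any library (0.0601) and without MOLM-13 control library 1 (0.0780), MOLM-13 control library 2 (0.106) or THP-1 control library 3 (0.0916). CD36 was at 5.65 ± 1.56 FPKM in MOLM-13 and 5.09 ± 0.220 FPKM in THP-1 controls (SD, n = 3). Its log2 fold change was −0.11 (95% interval −0.54 to 0.31, limma adjusted p = 0.604), and it turned to 0.07 without MOLM-13 control library 1. The call of 2 of 4 genes stands beside 44% of 12635 genes called between the lines, and 3 of 4 did not overlap beside 74.8% of all genes. The median log2 fold change was 0.74 over the 4 genes and 0.06 over all genes tested, which rose to 0.10 after rescaling to equal medians and to 0.17 in TPM.

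Because TREM2 needs TYROBP for its signal, their levels were set against each other within each library. The ratio of TYROBP to TREM2 was 24.4, 18.7 and 30.4 in MOLM-13 controls and 23.3, 18.7 and 22.7 with JOA. In THP-1 cells it was 4.70, 4.28 and 5.23 in controls and 6.86, 3.99 and 4.58 with JOA. The adaptor thus exceeded the receptor per unit of length in every library, by a ratio that did not overlap between the lines and overlapped between control and JOA within each.

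**Figure D3:**
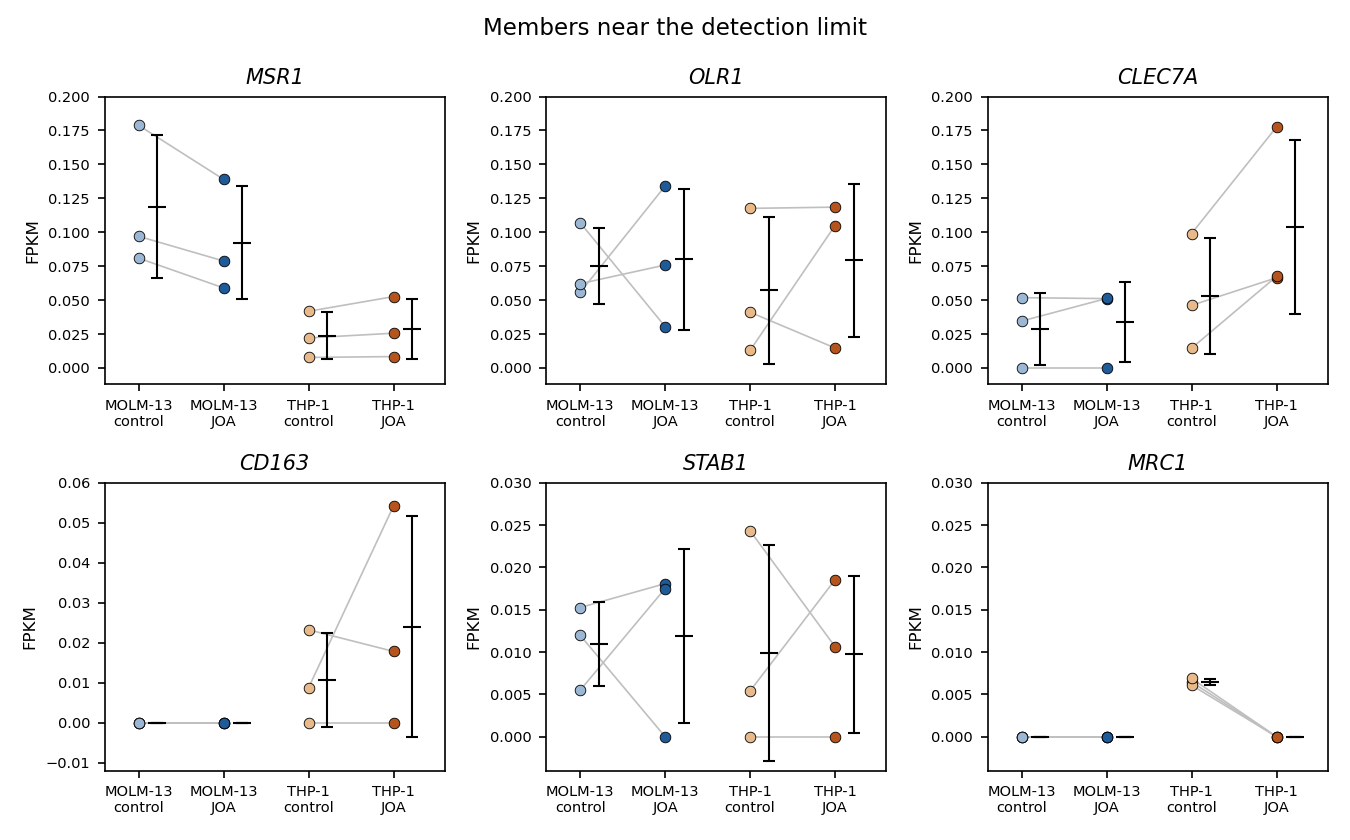
FPKM of the 6 lowest genes in each library (circles), with a vertical axis shared by MSR1, OLR1 and CLEC7A and separate axes for CD163, STAB1 and MRC1. Grey lines join libraries with the same replicate number, and the black bars give the mean ± SD (n = 3). MSR1 is lower in THP-1 than in MOLM-13 controls, CD163 and MRC1 are at 0 in all MOLM-13 libraries, and the SD reaches below 0 for some groups although no value does.

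The other 6 genes were near the limit of detection. Where the smallest value of a gene is taken as 1 fragment, 39 of the 44 other values above 0 of these 6 genes came within 0.25 of a whole number of fragments, after correction for relative depth, a tolerance that takes in 50% of the range between whole numbers. On this reading no library held more than 23 fragments of any of them, so differences among them rest on few fragments. Values beyond the tolerance included MSR1 in MOLM-13 control library 1 (0.296) and JOA libraries 1 and 2 (0.418 and 0.449). The fragment counts of MSR1 in MOLM-13 cells are therefore less certain. In such bulk samples, fewer cells that express a gene and less RNA per cell cannot be told apart.

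MSR1, the macrophage class A scavenger receptor, was the highest of these in MOLM-13 cells. It held 0.0809, 0.179 and 0.0970 FPKM in the MOLM-13 controls and 0.0590, 0.139 and 0.0788 FPKM with JOA, or 46 and 34 fragments in all. In THP-1 cells it held 0.00776, 0.0221 and 0.0418 FPKM in the controls and 0.00840, 0.0256 and 0.0526 FPKM with JOA, or 9 and 11 fragments. It was lower with JOA in 3 of 3 MOLM-13 pairs and higher in 3 of 3 THP-1 pairs, but the groups overlapped in both lines.

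The log2 fold change of MSR1 with JOA was −0.18 in MOLM-13 cells (95% interval −0.85 to 0.48, limma adjusted p = 1.00). Between the lines it fell below the filter. When every gene above 0 in any library was fitted, MSR1 was lower in THP-1 than in MOLM-13 controls, with a log2 fold change of −0.80 ± 0.19 (SE, limma adjusted p = 0.00946) and no overlap, the reverse of the order of MARCO.

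OLR1, the lectin-like receptor for oxidised lipoprotein, ranged from 0.0129 to 0.134 FPKM over the 12 libraries and its groups overlapped in every comparison. CLEC7A, the beta-glucan receptor, was at 0, 0.0518 and 0.0346 FPKM in MOLM-13 controls and at 0, 0.0511 and 0.0512 FPKM with JOA. In THP-1 cells CLEC7A was at 0.0462, 0.0146 and 0.0990 FPKM in controls and at 0.0664, 0.0674 and 0.178 FPKM with JOA. The THP-1 values were higher with JOA in 3 of 3 pairs, as 20 against 10 fragments, but they overlapped, and in that same wider fit the log2 fold change was 0.41 with a limma adjusted p of 0.565.

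CD163, the hemoglobin scavenger, was listed at 0 in all 6 MOLM-13 libraries. In THP-1 cells it was at 0, 0.0232 and 0.00872 FPKM in controls and at 0, 0.0178 and 0.0542 FPKM with JOA. MRC1, the mannose receptor, was listed at 0 in 9 of 12 libraries, with 1 fragment in each THP-1 control and 0 in each THP-1 JOA library. STAB1 lay at or below 0.0243 FPKM in every library, with 5 or 6 fragments in each group. For OLR1, STAB1, CD163 and MRC1 a change with JOA was not detectable at this depth.

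Markers of the lineage were set beside these values. In THP-1 cells ITGAM (CD11b), an integrin subunit of mature myeloid cells, had a log2 fold change of 0.71 with JOA (limma adjusted p = 0.103, and 0.0348 with the block), and MPO, a granule enzyme of immature myeloid cells, had one of −0.64 (limma adjusted p = 0.399, and 0.00659 with the block). ITGAM and MPO are named because they were called with the block. Of the 9 monocytic markers, 5 had a positive and 4 a negative log2 fold change in THP-1 cells. The means of LYZ (1032 to 895 FPKM) and CSF1R (17.6 to 16.6 FPKM) were lower with JOA. In MOLM-13 cells 7 were positive and 2 negative, and 0 were called. The summed level of the 9 monocytic markers, in which LYZ was the highest, ran from 1469 to 1999 FPKM in THP-1 controls and from 1401 to 1672 FPKM with JOA. The summed level of the 20 markers of other lineages ran from 25.0 to 27.3 FPKM and from 30.4 to 35.3 FPKM, of which PECAM1 made up 24.1 and 30.8 FPKM on average, and 7 and 8 of the 20 were at 0 throughout. The part of these shifts in the MARCO result was not tested.

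The genes around the set were taken as 7 lists by role. The counts given below for each list between the control lines stand beside 44% of 12635 genes called. Of all these genes, 3157 were called higher and 2402 lower in THP-1 controls. In MOLM-13 cells 0 genes of any list were called with JOA, with or without the block. Among all 12712 genes tested in THP-1 cells, 0.134% were called without the block and 1.27% with it. Of the lists, 0 genes were called in THP-1 cells without the block, and 1 was called with it. This was MERTK, a receptor for dying cells, at 0.309 to 0.728 FPKM in controls and 0.480 to 1.88 FPKM with JOA.

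MERTK had a log2 fold change of 0.83 (limma adjusted p = 0.386, and 0.0301 with the block), and its groups overlapped. GAS6, a ligand of MERTK, was at 40.3 to 42.6 FPKM in THP-1 controls and at 29.5 to 31.8 FPKM with JOA. Its log2 fold change of −0.46 passed the test, with a limma adjusted p of 0.0394, but not the fold threshold. In MOLM-13 cells GAS6 had a log2 fold change of 0.26 (95% interval −0.07 to 0.60), and the interaction of −0.72 had a limma adjusted p of 0.387, and 0.0326 with the block.

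**Figure D4:**
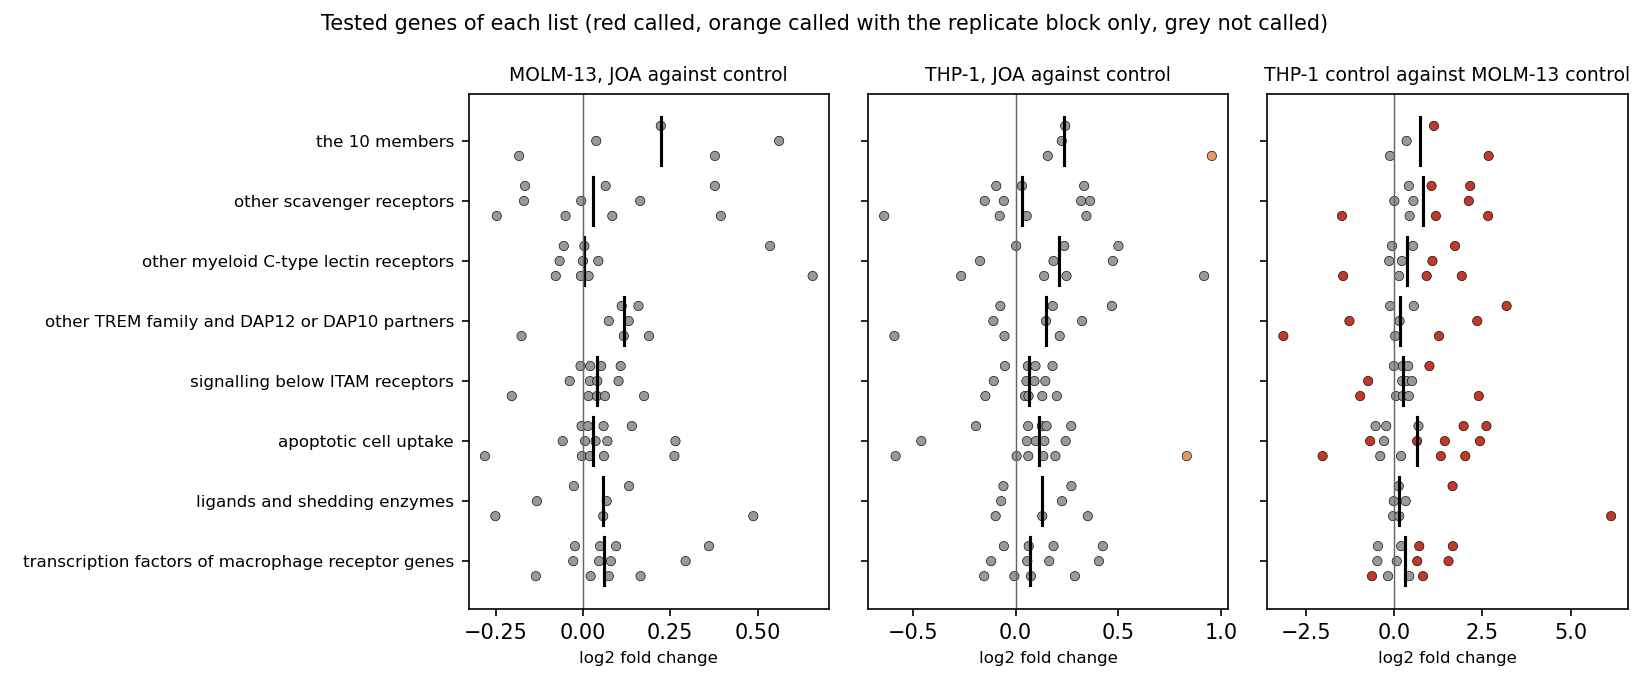
Log2 fold change on log2(FPKM + 0.1), on the horizontal axis, of each tested gene of the set and of the 7 lists (circles), for JOA against control within each line and for THP-1 against MOLM-13 controls. The panels have separate horizontal scales, the black bars mark the median of each list, red circles are called by limma and orange circles are called with the replicate block only. The orange circles are MARCO and MERTK in THP-1 cells, and red circles appear between the lines only.

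Among 16 other scavenger receptors, 10 were tested in MOLM-13 cells, with a median log2 fold change of 0.03 with JOA, and 11 in THP-1 cells, also with a median of 0.03. CD68, a lysosomal glycoprotein of macrophages and the most abundant of them, stood at 54.6 to 60.5 FPKM in MOLM-13 controls and 66.3 to 91.3 FPKM with JOA, and at 122 to 135 and 157 to 182 FPKM in THP-1 cells. It did not overlap in either line, but its log2 fold changes of 0.38 and 0.36 were below the threshold, with limma adjusted p of 1.00 and 0.0755. Between the lines 5 of 10 tested were higher in THP-1 controls and 1, CD44, was lower (log2 fold change −1.47). They included LRP1, an endocytic receptor for lipoproteins (0.0819 against 1.15 FPKM), CD163L1, a relative of CD163 (0.128 against 0.905 FPKM), and SCARB2, a lysosomal membrane protein (5.23 against 23.1 FPKM).

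Among 18 other lectin receptors, 10 were tested in each line, and the median log2 fold change with JOA was 0.002 in MOLM-13 and 0.21 in THP-1 cells. MRC2, a collagen receptor related to MRC1 and the most abundant of the list, had a log2 fold change with JOA of 0.004 in MOLM-13 cells, against 0.50 in THP-1 cells (limma adjusted p = 0.0698). Between the lines 4 of 10 were higher in THP-1 controls, among them CD209 (DC-SIGN, log2 fold change 1.92) and the inhibitory receptor CLEC12A (1.73), while CLEC10A was lower (−1.44). MRC2 was thus far above MRC1 in both lines, at 23.8 and 34.7 FPKM in the controls.

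Of 13 other TREM family genes and partners of DAP12 or DAP10, 7 were tested in MOLM-13 and 9 in THP-1 cells, with medians of 0.12 and 0.15 with JOA. HCST (DAP10), an adaptor with a role like that of TYROBP, had the highest mean over the 12 libraries and was at 2.26 ± 1.03 FPKM in MOLM-13 and 20.2 ± 2.35 FPKM in THP-1 controls (SD, n = 3), or 3.19 on the log2 scale, although PILRB, at 11.8 FPKM, stood above it in MOLM-13 controls and is named here after its values were seen. With JOA, HCST differed by 0.47 on that scale in THP-1 cells (limma adjusted p = 0.0989). Between the lines 3 of 9 were higher in THP-1 controls, TREML1 (2.36) among them, and 2 were lower, CD300LB, an activating receptor (−3.13), and TREML2 (−1.26).

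All 13 genes of signalling below ITAM receptors were tested in each line, with medians of 0.04 and 0.06 with JOA. SYK, the kinase that TYROBP recruits, had a log2 fold change of 0.02 in MOLM-13 cells (95% interval −0.14 to 0.17) and of 0.20 in THP-1 cells (95% interval 0.04 to 0.37, limma adjusted p = 0.218), and is named here after its values were seen. Between the lines CARD9, the adaptor below CLEC7A (2.40), and VAV3, an exchange factor (1.00), were higher in THP-1 controls. PTPN6, the phosphatase SHP-1 (−0.96), and MALT1 (−0.73) were lower, and GRB2, the most abundant, was at 100 and 119 FPKM.

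Of 20 genes of apoptotic cell uptake, 14 were tested in MOLM-13 and 16 in THP-1 cells, with medians of 0.03 and 0.11 with JOA. Between the lines 7 of 15 were higher in THP-1 controls, led by the bridging protein MFGE8 (log2 fold change 2.61) and MERTK (2.43), and 2 were lower, ITGB5, an integrin subunit (−2.02), and GAS6 (−0.68). RAC2, the GTPase of phagocytes, had the highest mean over the 12 libraries and was at 152 FPKM in MOLM-13 and 116 FPKM in THP-1 controls. RAC1, named after its values were seen, was above it in THP-1 controls, at 123 FPKM.

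Among 7 ligands and shedding enzymes the medians with JOA were 0.06 in MOLM-13 and 0.13 in THP-1 cells. APOE, a ligand of TREM2, showed the largest difference between the lines of all the genes in these lists, at 0.308 ± 0.228 FPKM in MOLM-13 and 24.9 ± 2.61 FPKM in THP-1 controls (SD, n = 3), or 6.14 on the log2 scale (limma adjusted p = 5.10e-06). Clusterin (CLU), another ligand, was also higher (1.66), and HMGB1 was the most abundant, at 142 and 139 FPKM. With JOA, APOE had log2 fold changes of 0.13 (95% interval −0.97 to 1.24) and −0.07 (95% interval −0.35 to 0.21).

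Of 13 transcription factors of macrophage receptor genes, 12 were tested in each line, with medians of 0.06 in MOLM-13 and 0.07 in THP-1 cells with JOA. Between the lines 5 of 12 were higher in THP-1 controls, including the nuclear receptor PPARG (log2 fold change 1.67), which drives CD36 in macrophages, the liver X receptor NR1H3 (1.54) and TFEC (0.82), and MITF was lower (−0.62). CD44, TREML2, MALT1 and MITF are named here after their values were seen. CEBPA, the most abundant, was at 181 and 208 FPKM. CD36 did not pass the test between the controls, and the relation of its level to PPARG was not tested.

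The genes whose levels ran most like MARCO over the 12 libraries, after the mean of each line was subtracted, were THEMIS2 (Pearson r = 0.963), B4GALT5 (r = 0.961) and BST1 (r = 0.960) among 12626 genes. For TREM2 they were TMEM169 (r = 0.893), FAM171A2 (r = 0.883) and ABHD15 (r = 0.876). These r are descriptions over libraries that share lines and replicate numbers, and they were picked as the highest of many.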

How the data were processed

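mRNA-seq was performed by the authors on 12 libraries made with a stranded mRNA kit and sequenced as paired reads. The authors deposited FPKM per gene and library, scaled to transcript length and mapped fragments. Per the labels, their processing notes name Trimmomatic, HISAT2, Cufflinks, HTSeq and hg38, without versions or order, and the annotation is not given in the sources used here. The table has 20030 rows, among them 3488 at 0 throughout and 27 whose names a spreadsheet turned into dates. Counting intervals need the total depth, which FPKM do not hold, and are not given.

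JOA was compared with control in each line by limma 3.58.1 in R 4.3.3 (lmFit, eBayes with trend) on log2(FPKM + 0.1), for genes averaging at least 0.1 FPKM in the libraries fitted, with Benjamini-Hochberg adjustment over all genes tested and calls at an adjusted p under 0.05 and a log2 fold change of at least 0.58 in size. The interaction used all 12 libraries and the adjusted p alone. DESeq, which the study used, needs counts and was not run. Genes below the filter were taken from a wider fit of every gene above 0 in any library. The fit without the block was tested on simulated data, with changes placed only in genes of a higher mean level than MARCO. That test covered neither the block nor genes as low as MARCO. Replicate numbers come from the sample titles, which do not say what a number stands for, so the pairing was inferred from these data. Departures from the group mean correlated between same-numbered libraries (0.264 to 0.398 in MOLM-13, 0.139 to 0.319 in THP-1 cells). Between the others the correlations ran from −0.256 to 0.0168 and from −0.259 to −0.0280. Departures within a group cancel out, so positive values between same-numbered libraries force lower ones between the others, which add no separate evidence.

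The members and the gene lists were chosen with earlier results of these data known. A gene of the lists is not reported here and was left out of the list counts. Named genes are all 10 members and, of each list, the genes called in a comparison with or without the block (up to 3 by size) and the most abundant gene. For MARCO and TREM2, the 3 genes with the highest Pearson r were named. Alternatives covered the pseudocount (1 and 0.01), the filter, scaling, the trend, the thresholds, a fit on 12 libraries, the block and leaving out each library. Python 3.11.15 was used for levels, promoters and exact tests. Promoters and gene positions are RefSeq on GRCh38.p14.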

Additional observations from a re-analysis of the deposited data

How the results depend on the processing

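Between the control lines 2 members were called, and this fell to 1 with a pseudocount of 1, where MARCO had a log2 fold change of 0.577, and to 1 with a mean of at least 1 FPKM, where MARCO was not tested. It rose to 3 in 3 settings, but the third gene was not the same. Over every gene above 0 it was MSR1, lower in THP-1 controls (log2 fold change −0.804). Without a fold threshold it was TYROBP, higher in THP-1 controls (0.356), and in TPM it was a gene below the main filter. In THP-1 cells 0 members were called, and 1 (MARCO) with the replicate block or with one fit on 12 libraries (limma adjusted p = 0.0488). MARCO also stayed called with the block and without replicate 1, 2 or 3 (limma adjusted p 0.00284 to 0.00557, log2 fold change 0.919 to 1.02), and 0 were called with the block over every gene above 0. The fits without a pair or over every gene were chosen after seeing the data. The block changed no other member's call. Leaving out each library kept the members called at 0 for JOA in either line, 2 between the lines and 0 for the interaction, and the THP-1 log2 fold change of MARCO ran from 0.744 without JOA library 3 to 1.14.

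Directions turned for CD36 with JOA in MOLM-13 cells (−0.19 to 0.22 on leaving out libraries), for CD36 between the lines (−0.34 to 0.068) and for the TYROBP interaction (−0.13 to 0.18, and −0.012 after median rescaling), and none of these was called. Among all genes, the 17 calls in THP-1 cells became 8 with a pseudocount of 1, 0 over every gene above 0, 1 without a trend, 38 without a fold threshold, 51 in one fit on 12 libraries, 161 with the block and 0 to 1 without a library. Between the lines, 5559 became 9000 without a fold threshold. In 283 other pairs of a member's log2 fold change and a setting, the direction held, and so did the call or its absence. A call joins the adjusted p and the fold, and the adjusted p alone crossed 0.05 for TYROBP between the lines (0.0160 to 0.106), for CD36 between the lines without MOLM-13 control library 2 (0.0250), and with the block for TREM2 without THP-1 pair 1 (0.00665) and TYROBP without pair 3 (0.0207). The cause was not tested. Depth limits the 6 lowest genes.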
